A study of Mus musculus with 6 samples.

Results

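The cell division genes examined here are 42 genes of S phase and mitosis, chosen by name as known genes of either phase. Of them 41 had a row among the 23225 gene symbols of the count table, 13 of S phase and 28 of mitosis, and Plk1 was not analysed here. RNA-seq measured their expression in dendritic cells that were sorted on day 23 out of ID8 tumours, which are grown from a line of mouse ovarian cancer cells, and the labels name ascites as the source. The XBP1-KO group had 3 libraries from mice with a conditional deletion of XBP1 in CD11c-positive cells, and the WT group had 3 libraries from wild-type mice, all on the C57BL/6 background. The promoter that drives the deletion, the sort gate and the age of the mice were not given in the sources used here, and cells without CD11c would keep the gene. XBP1 becomes an active transcription factor of the unfolded protein response when IRE1, a sensor in the endoplasmic reticulum, splices its mRNA.

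A cell that divides first licenses its replication origins with the ring-shaped MCM helicase, copies its DNA in S phase and then condenses and separates its chromosomes in mitosis. Genes of S phase are driven mainly by E2F transcription factors. Genes of mitosis are driven mainly by the complex of MuvB, B-Myb and FoxM1, which acts through a promoter element called CHR and nearby CCAAT boxes bound by NF-Y, and in resting cells both sets are held down by the DREAM complex. Most mature dendritic cells of tissues are non-dividing, while their committed precursors and part of the conventional dendritic cells in tissues still divide, so that bulk RNA of sorted dendritic cells can hold a mixture of both.

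Promoter stretches of 6 members show these elements, 3 of S phase with an E2F motif and 3 of mitosis with a CHR. They are the members of highest CPM in each phase with a RefSeq promoter that holds the motif before the annotated start, and the sequences are 100 bases each from RefSeq on the build GRCm38.p6. Capitals mark matches to E2F motifs or the CHR and to CCAAT boxes, on either strand.
Rrm2, chr12:24708004-24708103 (+): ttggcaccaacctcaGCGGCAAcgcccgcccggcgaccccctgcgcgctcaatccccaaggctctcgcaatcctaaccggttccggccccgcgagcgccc
Rrm1, chr7:102441548-102441647 (+): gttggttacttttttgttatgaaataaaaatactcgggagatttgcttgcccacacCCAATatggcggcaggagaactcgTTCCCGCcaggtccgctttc
Mcm5, chr8:75109280-75109379 (+): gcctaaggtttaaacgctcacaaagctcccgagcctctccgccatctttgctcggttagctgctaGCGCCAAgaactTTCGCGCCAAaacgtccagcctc
Bub3, chr7:131560247-131560346 (+): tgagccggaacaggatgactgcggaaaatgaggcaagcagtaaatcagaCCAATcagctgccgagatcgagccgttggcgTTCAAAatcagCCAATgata
Top2a, chr11:99024269-99024368 (-): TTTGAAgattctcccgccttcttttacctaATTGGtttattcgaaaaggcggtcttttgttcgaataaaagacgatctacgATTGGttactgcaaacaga
Prc1, chr7:80294366-80294465 (+): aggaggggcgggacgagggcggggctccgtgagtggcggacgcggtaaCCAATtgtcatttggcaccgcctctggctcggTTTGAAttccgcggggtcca
The first E2F match lay 235 bases before the start in Rrm2, 67 in Rrm1 and 164 in Mcm5, and the first CHR match lay 43 bases before it in Bub3, 179 in Top2a and 30 in Prc1. For Mcm5 the bases after the RefSeq start did not match a GENCODE transcript. The search used TTTGAA as the CHR and CCAAT as the CCAAT box. For E2F it used TTCCCGC or the variant TTGGCGC or TTCGCGC or also TTGCCGC, and all motifs were searched on both strands and may overlap. Of the 41 members 32 had a promoter in the RefSeq table, with 35 promoters of 250 bases before the start. A CHR stood in 10 of the 24 promoters of mitotic members (41.7%) and in 1 of the 11 promoters of S-phase members (9.09%), against 16% of all 32851 promoters of the table. An E2F motif stood in 4 of 24 promoters of mitotic members (16.7%) and in 7 of 11 of S-phase members (63.6%), against 7.89% of all promoters. A CCAAT box stood in 20 of 24 and 9 of 11, against 33.8% of all, and all 10 promoters of mitotic members with a CHR also held a CCAAT box. These matches describe letters and not binding.

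The libraries held between 26946349 and 32709100 counts, and levels are given as CPM, counts scaled to a common library total with TMM factors. Xbp1 itself had 32.5, 30.9 and 40.4 CPM in XBP1-KO libraries a, b and c, against 67.2, 48.7 and 76.8 CPM in WT libraries a, b and c, and its log2 fold change was -0.89 (SE 0.18, 95% interval -1.28 to -0.50) and the adjusted p 0.0545 in edgeR's quasi-likelihood test. The lowest WT library lay above the highest XBP1-KO library, but the gene did not pass the threshold of 0.05. It was called lower in 5 of the 17 alternatives, with DESeq2 (adjusted p 0.0015), with no filter on low counts (0.00731), with the filter on CPM (0.0464), without WT b (0.0466) and without WT b and XBP1-KO b (0.0496), and the highest adjusted p was 0.301, without WT c. A count over the whole gene also holds reads from any exon outside the deleted part. Markers of dendritic cells were present in all libraries. Itgax, the chain CD11c, had 143, 161 and 133 CPM in the XBP1-KO libraries, against 109, 94.2 and 106 CPM in the WT libraries, and the most abundant markers were Cd74 and H2-Aa, the invariant chain and an alpha chain of MHC class II. RNA was isolated separately for each library, but no label ties the libraries to separate animals. The p-values therefore cover only the spread between these libraries, which may be technical. Libraries XBP1-KO b and WT b stood apart from the other 4, with the lowest sums of dendritic cell markers and the highest of red cell genes, and the counts of members that lay lower, had an unadjusted p under 0.05 or were called are given with and without them. The letters a, b and c follow the column order within a genotype and pair no libraries.

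In both genotypes the cell division genes were expressed at low to middle levels. Every member had between 120 and 6152 counts in each library. All 41 passed the filter on low counts and were tested. Per kilobase of the longest protein-coding transcript in GENCODE M21, the mean level over the 6 libraries was highest for Pcna (89 CPM per kb), Rrm2 (65.1), Bub3 (49.2), Tyms (48.5) and Gmnn (33.2). At the other end were Foxm1 (1.31 CPM per kb), Plk4 (2.77), Ttk (2.78) and Cenpf (2.81). On this scale Pcna had 92.2 ± 6.51 in XBP1-KO and 85.8 ± 10.1 in WT, and Rrm2 had 60.5 ± 3.63 in XBP1-KO and 69.8 ± 16.1 in WT (SD, n = 3 each). Bub3, with 49.1 ± 2.08 in XBP1-KO and 49.3 ± 2.41 in WT, and Tyms, with 50.5 ± 7.26 in XBP1-KO and 46.5 ± 8.13 in WT, lay within each other's spread. The proliferation antigen Mki67 had, in CPM per kb, 5.92 ± 0.514 in XBP1-KO and 7.34 ± 2.6 in WT. Annotated exons of Mcm7, Ccne2, Ccna2, Foxm1, Cdc20, Ube2c, Kif20a, Nusap1 and Prc1 overlap another gene, and Pcna, Tyms, Ccnb1 and Ccnb2 have named pseudogenes, so the counts of these 13 members are less certain.

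**Figure D1:**
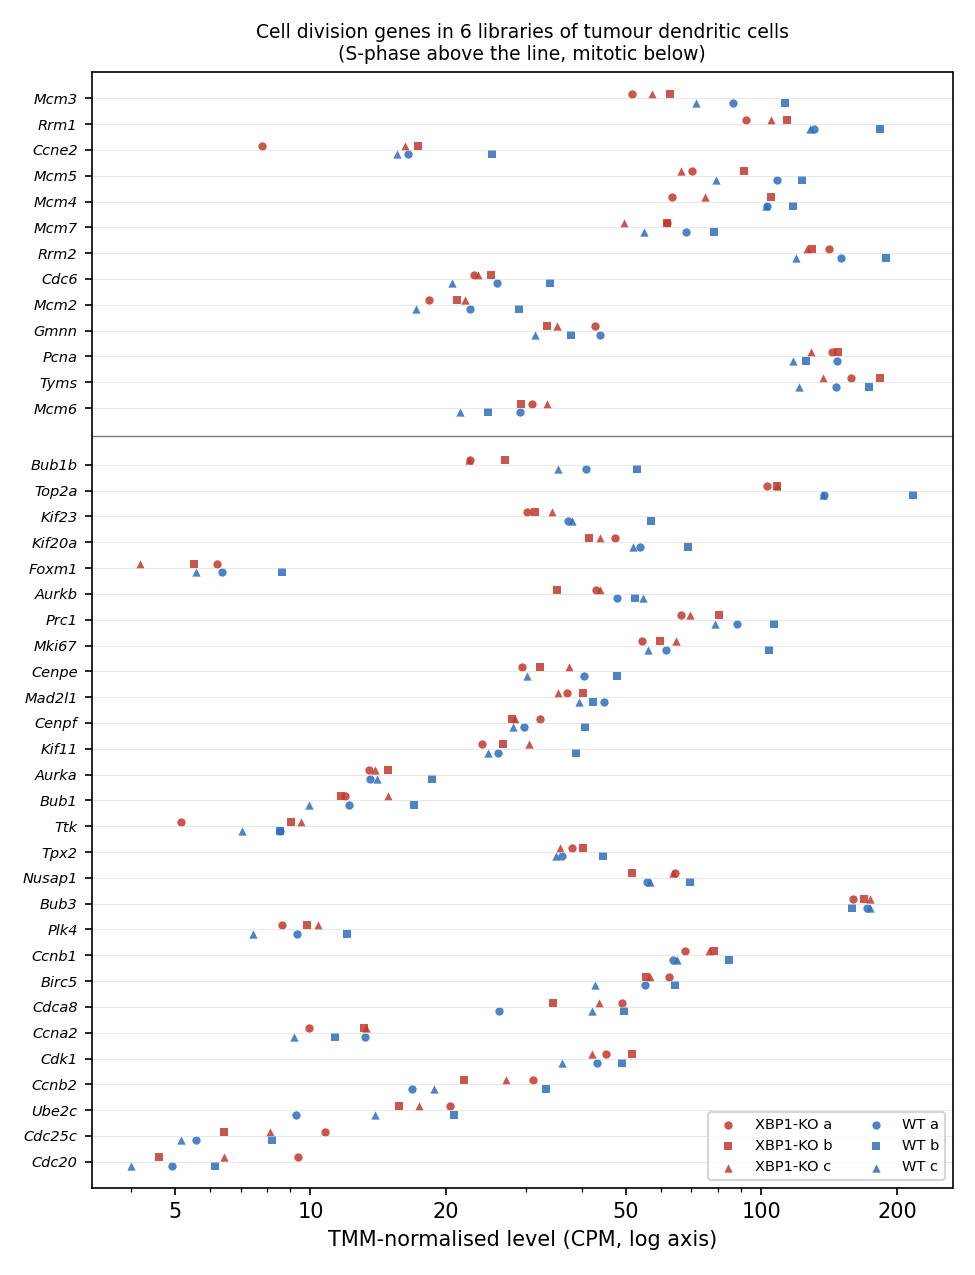
TMM-normalised level of each of the 41 cell division genes (rows) in CPM on a log axis, with 3 XBP1-KO libraries in red and 3 WT libraries in blue and the marker shape giving the library letter. Within each phase genes run from the lowest to the highest log2 fold change, and the blue square of WT b is the highest point in 29 of the 41 rows.

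The comparison of the genotypes asks whether loss of XBP1 in CD11c-positive cells went with a different level of cell division genes. No member was called higher or lower: none of 13 S-phase and none of 28 mitotic genes had an adjusted p under 0.05 by edgeR. Missing the threshold does not show equal levels, and the targeted gene Xbp1 missed it too. Over all 15958 genes tested 71 passed (0.445%), of which 25 were higher in XBP1-KO (0.157%) and 46 lower (0.288%), so that no call in 41 genes lies near the background share. With scaling by library size alone the split over all genes was 13 higher and 12 lower, and with upper quartile scaling 23 and 27. Of all genes 12.8% had an unadjusted p under 0.05 in either direction, 1317 of them lower in XBP1-KO and 733 higher. Among the members there were 10 (24.4%), all lower in XBP1-KO. Without WT b there were 7, beside 14.9% of all genes, and only 5 of the 10 were among them (Mcm3, Rrm1, Bub1b, Top2a and Aurkb), while Ccnb2 and Ube2c joined with higher values in XBP1-KO. Without WT b and XBP1-KO b there were 11 in either direction, beside 16.1% of all genes, of which 7 were among the 10. These were 4 S-phase members, all among the 10, and 7 mitotic members, of which 3 were among the 10. In that fit 12 of 28 mitotic members lay lower in XBP1-KO. The members with the lowest values in XBP1-KO relative to WT were the checkpoint gene Bub1b, the helicase subunit Mcm3, the topoisomerase Top2a, the reductase subunit Rrm1 and the cyclin Ccne2. Members at or above the WT mean included the cyclins Ccnb1 and Ccnb2, the phosphatase Cdc25c, the activators Cdc20 and Ube2c of protein degradation in mitosis, and Mcm6. In bulk RNA a smaller share of dividing cells and less of these RNAs per cell cannot be told apart.

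Direction was uneven over the members. Of 41 members 28 lay lower in XBP1-KO (68.3%), against 43.9% of all genes tested. For S phase the count was 10 of 13, with a median log2 fold change of -0.21. For mitosis it was 18 of 28, with a median of -0.024, and the median of all genes tested was 0.057. With scaling by library size alone the mitotic count was 13 of 28 and its median 0.044, while S phase had 9 of 13 lower with a median of -0.15. Values of 8 members did not overlap between the genotypes, where 19.2% of all genes did not. Of these 7 members (17.1%) lay lower in every XBP1-KO library than in every WT library, where 10.4% of all genes did. They were Mcm3, Rrm1, Bub1b, Top2a, Kif20a, Kif23 and Aurkb. Mcm6 alone (1 of 41, 2.44%) lay higher in every XBP1-KO library, where 8.8% of all genes did. The members were measured in the same libraries and are not independent of each other. The 95% intervals of 36 of 41 members lay within a 2-fold change in either direction, beside 9700 of the 15958 genes tested. Each interval is for a single gene and does not bound a change of the members together.

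**Figure D2:**
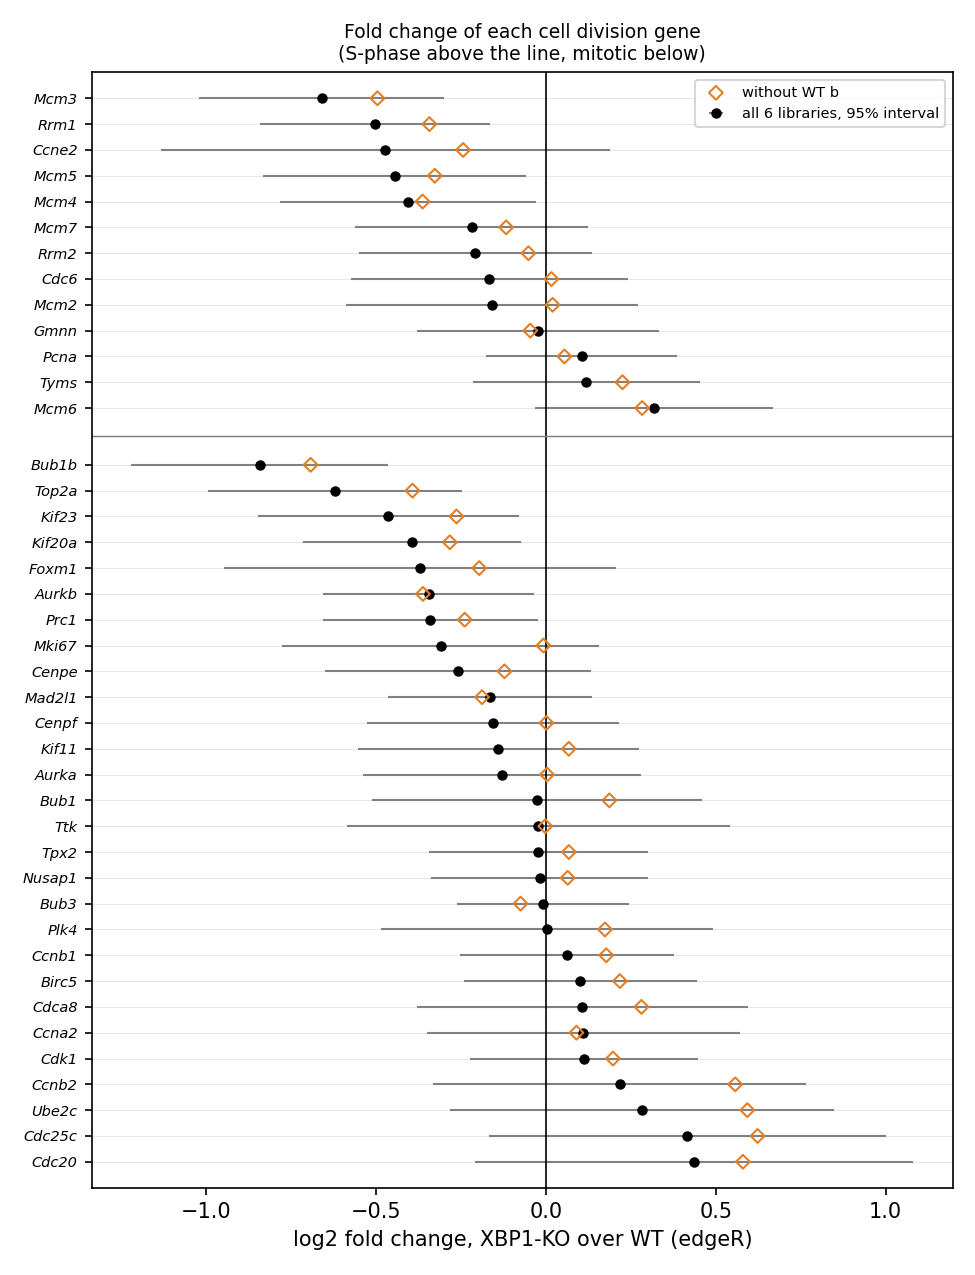
Fold change of each cell division gene, XBP1-KO over WT, on the log2 scale, with black points for the fit of all 6 libraries, grey bars for its 95% interval and orange diamonds for the fit without WT b. Intervals of 10 members, Bub1b lowest, lie wholly below 0, but no gene passed after adjustment over all genes, and most diamonds lie right of the points.

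Origin licensing was read from the MCM helicase, its loader Cdc6 and the licensing inhibitor Gmnn, of which 7 of 8 lay lower in XBP1-KO and none passed (6 of 8 lower with library size alone or upper quartile scaling, where Gmnn turned, and 5 of 8 without WT b, where Cdc6 and Mcm2 turned). Mcm3, a subunit of the ring, had 51.7, 62.6 and 57.2 CPM in XBP1-KO libraries a, b and c, against 86.6, 113 and 71.8 CPM in WT libraries a, b and c. All XBP1-KO libraries lay below all WT libraries, and the log2 fold change was -0.66 (SE 0.167, 95% interval -1.02 to -0.30) and the adjusted p 0.102 in edgeR's test. It was called lower with DESeq2 (adjusted p 0.0194) and with no filter on low counts (0.0313), with a range from 0.0194 to 0.295 over all 17 alternatives. Mcm4, the subunit of highest level by CPM, had 63.4, 105 and 75.2 CPM in the XBP1-KO libraries, against 103, 118 and 102 CPM in the WT libraries, where XBP1-KO b lay above 2 WT libraries and the groups overlapped. The log2 fold change was -0.41 (SE 0.174, 95% interval -0.78 to -0.028) and the adjusted p 0.35 in edgeR's test. Mcm6 lay higher, with 31, 29.4 and 33.5 CPM in the XBP1-KO libraries, against 29.2, 24.8 and 21.4 CPM in the WT libraries. Its lowest XBP1-KO library lay just above its highest WT library, and the log2 fold change was 0.32 (SE 0.162, 95% interval -0.032 to 0.67) and the adjusted p 0.441 in edgeR's test. Mcm2, Mcm5, Mcm7, Cdc6 and Gmnn had log2 fold changes between -0.44 (Mcm5) and -0.023 (Gmnn), with adjusted p between 0.31 and 0.965 in edgeR's test.

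The balance between subunits of the ring was also read within each library. The ratio of Mcm6 to Mcm3 within a library, which scaling does not alter, was 0.601, 0.469 and 0.585 in XBP1-KO, against 0.337, 0.22 and 0.299 in WT. Every XBP1-KO ratio lay above every WT ratio, and the same held for Mcm6 over Mcm2, Mcm5 and Mcm7. Mcm6 lay higher and Mcm3 lower in every XBP1-KO library, so the ratio of Mcm6 to Mcm3 could not overlap. The ratio of Mcm6 to Mcm4 overlapped, with 0.49, 0.279 and 0.446 in XBP1-KO, against 0.284, 0.21 and 0.209 in WT. These pairs were chosen after their values were seen, so the ratios are a description with no test, and they show unequal levels without saying which subunit differed.

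Among genes of the replication clamp and nucleotide supply, 2 of 4 lay lower and none passed. Rrm1, the large subunit of ribonucleotide reductase, had 92.7, 114 and 105 CPM in XBP1-KO libraries a, b and c, against 131, 183 and 128 CPM in WT libraries a, b and c. The groups did not overlap, and the log2 fold change was -0.50 (SE 0.157, 95% interval -0.84 to -0.16) and the adjusted p 0.178 in edgeR's test. Tyms, the thymidylate synthase, had 158, 183 and 137 CPM in the XBP1-KO libraries, against 146, 173 and 122 CPM in the WT libraries, with groups that overlapped over most of their range. Its log2 fold change was 0.12 (SE 0.155, 95% interval -0.22 to 0.45) and the adjusted p 0.779 in edgeR's test. Rrm2, the small subunit of the reductase and the one made in S phase, had 142, 129.6 and 127 CPM in the XBP1-KO libraries, against 151, 189 and 119 CPM in the WT libraries. The XBP1-KO libraries lay inside the WT range (log2 fold change -0.21, adjusted p 0.615 in edgeR's test). Pcna, the sliding clamp of DNA polymerases, had a log2 fold change of 0.11 with an adjusted p of 0.765, and its highest library held only 1.26 times the level of its lowest. Ccne2, cyclin E2 of the entry into S phase, had 7.79, 17.3 and 16.2 CPM in the XBP1-KO libraries, against 16.4, 25.3 and 15.6 CPM in the WT libraries. XBP1-KO a stood far below the other 5, the largest spread of any member at 3.25-fold, and the adjusted p was 0.552 in edgeR's test (log2 fold change -0.47).

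Mitotic cyclins, Cdk1 and their regulators lay slightly higher in XBP1-KO in 5 of 6 genes, and none passed. The median log2 fold change was 0.11, and it was 0.19 without WT b and 0.13 without WT b and XBP1-KO b, each with 5 of 6 higher. Ccnb1, cyclin B1, which activates Cdk1 for entry into mitosis, had 67.7, 78.7 and 76.5 CPM in XBP1-KO libraries a, b and c, against 63.8, 84.7 and 65.1 CPM in WT libraries a, b and c. The groups overlapped, and the log2 fold change was 0.062 (SE 0.146, 95% interval -0.25 to 0.38) and the adjusted p 0.888 in edgeR's test. Cdc25c, the phosphatase that removes inhibitory phosphates from Cdk1, had 10.8, 6.44 and 8.13 CPM in the XBP1-KO libraries, against 5.58, 8.2 and 5.17 CPM in the WT libraries. Library XBP1-KO a was highest and XBP1-KO b lay below WT b, and the log2 fold change was 0.42 (SE 0.27, 95% interval -0.17 to 1.00) and the adjusted p 0.555 in edgeR's test. Foxm1, the transcription factor of mitotic genes, was the 1 gene of the group that lay lower, at -0.37 (adjusted p 0.597 in edgeR's test). Its exons overlap 2 annotated genes on its own strand. The kinase Cdk1, cyclin A2 (Ccna2) and cyclin B2 (Ccnb2) had log2 fold changes of 0.11, 0.11 and 0.22.

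The mitotic kinases and the chromosomal passenger complex were represented by 5 genes, 2 of them lower in XBP1-KO (1 of 5 without WT b, where Aurka turned), and none passed. Aurkb, the kinase of the passenger complex that corrects attachments of chromosomes to the spindle, had 43, 35.3 and 43.8 CPM in XBP1-KO libraries a, b and c, against 47.9, 52.4 and 54.7 CPM in WT libraries a, b and c. The groups did not overlap, and the log2 fold change was -0.34 (SE 0.143, 95% interval -0.65 to -0.036) and the adjusted p 0.325 in edgeR's test. Its partner Birc5, survivin, had 62.4, 55.4 and 56.5 CPM in the XBP1-KO libraries, against 55.3, 64.4 and 42.9 CPM in the WT libraries, with all XBP1-KO libraries inside the WT range. The log2 fold change was 0.10 (SE 0.159, 95% interval -0.24 to 0.44) and the adjusted p 0.824 in edgeR's test. Cdca8, borealin, another partner, had a log2 fold change of 0.11 with an adjusted p of 0.87. Aurka, the centrosomal Aurora kinase, and Plk4, which duplicates centrioles, had log2 fold changes of -0.13 and 0.0039.

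All 5 genes of the spindle assembly checkpoint, which holds back anaphase until chromosomes are attached, had log2 fold changes below 0 and none passed, but with library size alone or upper quartile scaling only 2 of 5 did. Without WT b it was 4 of 5, with Bub1 above 0. Bub1b, which encodes the checkpoint protein BubR1, had 22.6, 27 and 22.5 CPM in XBP1-KO libraries a, b and c, against 40.8, 53 and 35.4 CPM in WT libraries a, b and c. It had the lowest fold change and the smallest adjusted p of all members: every XBP1-KO library lay below every WT library, and the log2 fold change was -0.84 (SE 0.175, 95% interval -1.22 to -0.46) and the adjusted p 0.0566 in edgeR's test. Bub3, which binds BubR1 and Bub1, had 159.8, 169 and 174 CPM in the XBP1-KO libraries, against 172, 159 and 174 CPM in the WT libraries. This was the steadiest member, with a highest library 1.1 times its lowest, and the log2 fold change was -0.0078 (SE 0.117, 95% interval -0.26 to 0.25) and the adjusted p 0.981 in edgeR's test. The checkpoint kinases Bub1 and Ttk, also known as Mps1, and the checkpoint effector Mad2l1 had log2 fold changes of -0.026, -0.022 and -0.16, with adjusted p between 0.651 and 0.978 in edgeR's test. The ratio of Bub1b to Bub3 was 0.141, 0.16 and 0.13 in XBP1-KO, against 0.237, 0.333 and 0.203 in WT, and that of Bub1b to its paralog Bub1 was 1.9, 2.31 and 1.52 in XBP1-KO, against 3.35, 3.12 and 3.56 in WT. Neither ratio overlapped between the genotypes, and both pairs were chosen after their values were seen. Bub1b was called lower with DESeq2 (adjusted p 0.00183), with no filter on low counts (0.0106) and without XBP1-KO b (0.0389). Over all 17 alternatives its adjusted p ran from 0.00183 to 0.217.

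Cdc20, an activator, and Ube2c, the ubiquitin-conjugating enzyme, of the anaphase-promoting complex both lay higher in XBP1-KO on average and did not pass. Their median log2 fold change was 0.36, and it was 0.59 without WT b and 0.74 without WT b and XBP1-KO b. Ube2c had 20.4, 15.7 and 17.4 CPM in XBP1-KO libraries a, b and c, against 9.28, 20.8 and 13.9 CPM in WT libraries a, b and c, with WT b the highest library and the 2 other WT libraries below all XBP1-KO libraries. Its log2 fold change was 0.28 (SE 0.26, 95% interval -0.28 to 0.85) and the adjusted p 0.68 in edgeR's test. Cdc20 had 9.4, 4.62 and 6.43 CPM in the XBP1-KO libraries, against 4.94, 6.15 and 4 CPM in the WT libraries, again with overlap, and the log2 fold change was 0.44 (SE 0.299, 95% interval -0.21 to 1.08) and the adjusted p 0.579 in edgeR's test. Exons of Ube2c overlap Tnnc2 and those of Cdc20 overlap Elovl1, each on the opposite strand, and without a stated strand setting reads of such partners cannot be told apart.

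Spindle motors and bundling proteins lay lower in 6 of 6 genes and none passed, and with library size alone or upper quartile scaling 4 of 6 lay lower, with Tpx2 and Nusap1 above 0. Without WT b it was 3 of 6, with Kif11, Tpx2 and Nusap1 above 0. Kif20a, a kinesin of cytokinesis, had 47.4, 41.6 and 44 CPM in XBP1-KO libraries a, b and c, against 53.9, 68.9 and 51.9 CPM in WT libraries a, b and c. The groups did not overlap, and the log2 fold change was -0.39 (SE 0.149, 95% interval -0.71 to -0.073) and the adjusted p 0.277 in edgeR's test. Prc1, which bundles microtubules in the spindle midzone, had 66.5, 80.5 and 69.5 CPM in the XBP1-KO libraries, against 88.3, 107 and 78.9 CPM in the WT libraries, where XBP1-KO b lay above WT c. Its log2 fold change was -0.34 (SE 0.146, 95% interval -0.66 to -0.023) and the adjusted p 0.349 in edgeR's test. Kif23, the kinesin of the centralspindlin complex, did not overlap either (log2 fold change -0.46, adjusted p 0.284 in edgeR's test). Kif11, the motor that separates the spindle poles, and the spindle assembly factors Tpx2 and Nusap1 had log2 fold changes of -0.14, -0.021 and -0.018. The kinetochore motor Cenpe had 29.4, 32.2 and 37.5 CPM in the XBP1-KO libraries, against 40.5, 48 and 30.2 CPM in the WT libraries, with overlap, and the log2 fold change was -0.26 (SE 0.181, 95% interval -0.65 to 0.13) and the adjusted p 0.584 in edgeR's test. Cenpf, a kinetochore protein of late S phase and mitosis, had a log2 fold change of -0.15.

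Top2a, the topoisomerase that untangles replicated DNA, had 103, 109 and 109 CPM in XBP1-KO libraries a, b and c, against 138, 218 and 137 CPM in WT libraries a, b and c. The XBP1-KO libraries lay close together and below all WT libraries, WT b stood far above the rest, and the log2 fold change was -0.62 (SE 0.172, 95% interval -0.995 to -0.25) and the adjusted p 0.132 in edgeR's test. Mki67, the Ki-67 antigen that coats mitotic chromosomes, had 54.3, 59.7 and 64.7 CPM in the XBP1-KO libraries, against 61.6, 104 and 56 CPM in the WT libraries. Here WT a and WT c lay within the XBP1-KO range and only WT b stood above it. The log2 fold change was -0.31 (SE 0.212, 95% interval -0.78 to 0.16) and the adjusted p 0.582 in edgeR's test. Top2a relative to Mki67 was 1.9, 1.82 and 1.68 in XBP1-KO, against 2.24, 2.1 and 2.45 in WT, with no overlap between the genotypes. This ratio too is a description with no test. Top2a was called lower with DESeq2 (adjusted p 0.0336) and with no filter on low counts (0.0498), and over all 17 alternatives its adjusted p ran from 0.0336 to 0.342.

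**Figure D3:**
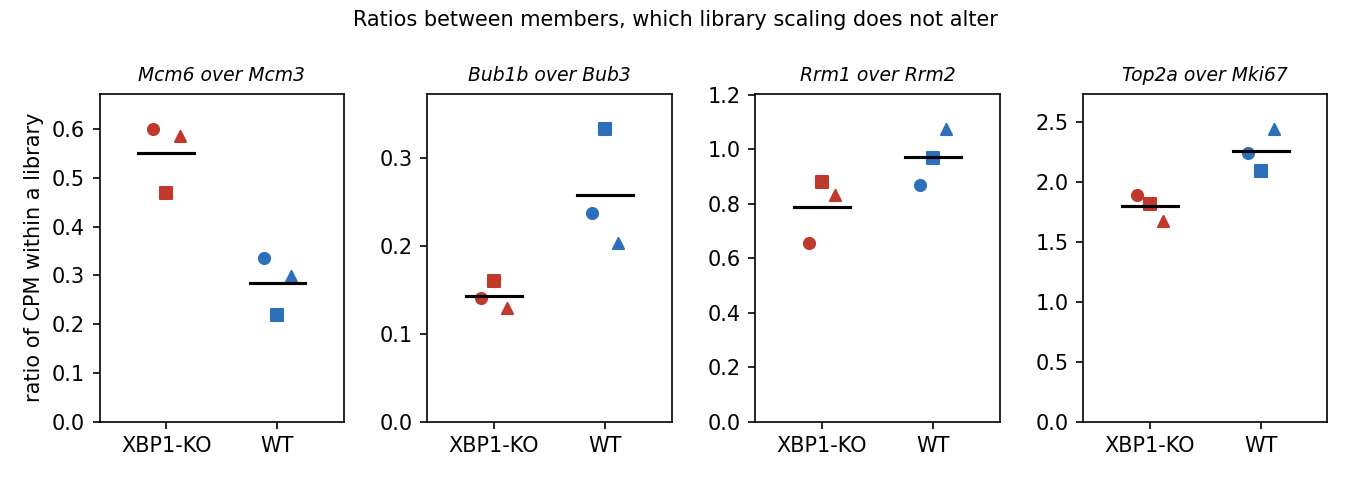
Ratios of CPM between members within each library, for 4 pairs, with 3 XBP1-KO libraries in red, 3 WT libraries in blue, marker shapes for the library letter and black lines for the mean of a genotype. Mcm6 over Mcm3 is higher and Bub1b over Bub3 and Top2a over Mki67 are lower in every XBP1-KO library, while Rrm1 over Rrm2 overlaps. The ratios are a description with no test.

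One library stood apart from the rest in these genes. WT b held the highest level of 29 of 41 members (70.7%), where it was the highest library for 17.9% of all genes tested. It was the highest for 9 of 13 S-phase and 20 of 28 mitotic members. The median log2 ratio of a member to its own mean over the 6 libraries, computed on CPM + 0.5, was -0.11, 0.0045 and -0.14 for S phase in XBP1-KO libraries a, b and c, against 0.094, 0.42 and -0.19 in WT libraries a, b and c. For mitosis it was -0.092, -0.11 and 0.036 in XBP1-KO, against -0.033, 0.33 and -0.14 in WT. By these medians WT b stood highest in both phases and WT c lowest, with the XBP1-KO libraries between them.

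**Figure D4:**
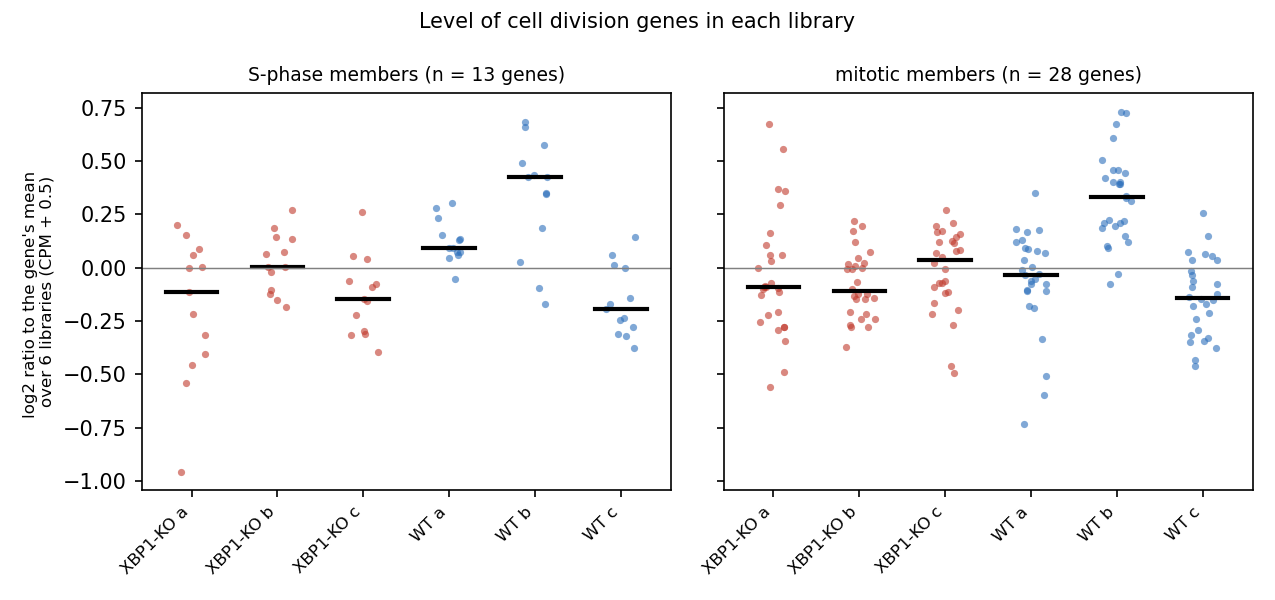
Log2 ratio of each member to its mean over the 6 libraries (computed on CPM + 0.5), by library, for 13 S-phase genes (left) and 28 mitotic genes (right), with XBP1-KO libraries in red, WT libraries in blue and black lines at the median. The median of WT b, 0.42 and 0.33, lies above that of the other 5 libraries in both panels.

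Summed over the 13 S-phase members the level was 906, 1023 and 877 CPM in XBP1-KO libraries a, b and c, against 1078, 1255 and 901 CPM in WT libraries a, b and c. Summed over the 28 mitotic members it was 1104, 1105 and 1136 CPM in XBP1-KO libraries a, b and c, against 1161, 1495 and 1122 CPM in WT libraries a, b and c. In each sum WT b was highest, and the mitotic sum of the other 5 libraries stayed within a narrow range. Unlike the medians, the lowest sum was that of an XBP1-KO library, XBP1-KO c for S phase and XBP1-KO a for mitosis. The mitotic sum divided by the S-phase sum was 1.22, 1.08 and 1.3 in XBP1-KO, against 1.08, 1.19 and 1.24 in WT, so the balance of the phases overlapped between the genotypes.

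Without WT b, 20 of the 41 members lay lower in XBP1-KO (48.8%), near the 46.8% of all genes in that fit. S phase then had 8 of 13 lower with a median log2 fold change of -0.051, and mitosis 12 of 28 with a median of 0.034, while 8 members turned in sign. No member passed in that fit, where 0.243% of all genes did. Without WT b the log2 fold change of Mki67 was -0.0071 and that of Top2a -0.39 (adjusted p 0.171 in edgeR's test). Bub1b and Mcm3 had log2 fold changes of -0.69 and -0.50 (adjusted p 0.125 and 0.171), still the 2 lowest members. Leaving out XBP1-KO b as well gave the same counts, 8 of 13 and 12 of 28, beside 46.2% of all genes lower and 0.44% called.

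Some markers of conventional dendritic cells of type 1, which cross-present antigen, were high in the same library. Xcr1, their chemokine receptor, had 21.6, 115 and 62.1 CPM in XBP1-KO libraries a, b and c, against 69.3, 171 and 66.7 CPM in WT libraries a, b and c. Clec9a, a receptor for dead cells, had 5.45, 21.6 and 16.1 CPM in the XBP1-KO libraries, against 18.4, 36.6 and 13.1 CPM in the WT libraries. Flt3, the cytokine receptor of dendritic cells and their precursors, had 15.9, 40 and 41.5 CPM in the XBP1-KO libraries, against 29.5, 50.3 and 27.8 CPM in the WT libraries. WT b was the highest library for all 3 genes, which were picked from the dendritic cell list after their values were seen. Batf3, a transcription factor of the same cell type in that list, did not share the pattern, with 45.6, 20.9 and 37.9 CPM in the XBP1-KO libraries, against 25.9, 33.2 and 38.5 CPM in the WT libraries. The summed dendritic cell list of 17 genes, dominated by Cd74, was 75138 to 107283 CPM in XBP1-KO and 80872 to 130682 CPM in WT, with XBP1-KO b and WT b lowest. Red cell genes, Hba-a2 and Hbb-b1 first, summed to 15.6, 145 and 18.3 CPM in XBP1-KO libraries a, b and c, against 19.1, 136 and 12.8 CPM in WT libraries a, b and c, high in the 2 libraries of the letter b. The part of these cell types in the levels of the cell division genes was not tested.

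Marker lists of other cells that divide or travel with dendritic cells were summed in the same way, and no marker with a row was at 0 in all libraries. The 9 T cell genes with a row, of 12 named, had Lck and Cd8b1 highest. They summed to 90.5 to 138 CPM in XBP1-KO and 45.5 to 55.8 CPM in WT. Of them 2 rose, Cd3e and Lck (log2 fold changes 1.59 and 1.26, adjusted p 0.0227 and 0.0248 in edgeR's test). Cd4 alone went the other way, lower in every XBP1-KO library (log2 fold change -0.31, adjusted p 0.628 in edgeR's test). The 8 NK cell genes, with Klrk1 and Klrb1c highest, summed to 212 to 337 CPM in XBP1-KO and 159 to 212 CPM in WT. Nkg7 and Ncr1 rose (log2 fold changes 1.77 and 1.53, adjusted p 0.02 and 0.0488 in edgeR's test). The 6 neutrophil genes, with Retnlg and S100a8 highest, summed to 300.1 to 378 CPM in XBP1-KO and 82.8 to 200.2 CPM in WT. For B cells, with Cd79b and Ms4a1 highest, the sum was 377 to 534 CPM in XBP1-KO and 170 to 364 CPM in WT. None of these genes passed, and Jchain alone lay lower on average (log2 fold change -0.83, adjusted p 0.563 in edgeR's test). For mast cells, with Kit and Cma1 highest, it was 112 to 151 CPM in XBP1-KO and 97.2 to 165 CPM in WT. Of the mast cell genes Cma1 and Cpa3 rose (log2 fold changes 1.25 and 1.21, adjusted p 0.0192 and 0.0441 in edgeR's test). Kit went the other way, lower in every XBP1-KO library, and did not pass (log2 fold change -0.68, adjusted p 0.21 in edgeR's test). Macrophage and monocyte genes, with Ccr2 and Cd68 highest, summed to 4114 to 5128 CPM in XBP1-KO and 5344 to 6162 CPM in WT. Mrc1 fell (log2 fold change -0.76, adjusted p 0.0455 in edgeR's test). The list was mixed, with 5 of 11 genes higher in XBP1-KO and a median log2 fold change of -0.01. Genes of ID8 and mesothelial cells, with Krt19 and Krt18 highest, summed to 107 to 189.6 CPM in XBP1-KO and 127 to 170.4 CPM in WT. T cell, B cell and neutrophil sums were higher in every XBP1-KO library than in every WT library, and so was the NK cell sum by a margin under 1 CPM. The macrophage and monocyte sum was lower in every XBP1-KO library than in every WT library. Its largest part was Ccr2, with a mean of 1721 CPM in XBP1-KO and 2693 CPM in WT, which did not pass (adjusted p 0.0785 in edgeR's test). The part of these cells in the levels of the cell division genes was not tested.

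The rest of the pathway was read from lists that do not hold the members. Of 47 other S-phase genes tested 26 lay lower (55.3%, beside 43.9% of all genes tested), with a median log2 fold change of -0.063, and none passed in edgeR's test. At an unadjusted p under 0.05 there were 9 (19.1%), all lower, beside 12.8% of all genes in either direction, 1317 lower and 733 higher. Dnmt1, the maintenance DNA methyltransferase, had the smallest p, with 20.8 ± 3.79 CPM in XBP1-KO and 31 ± 7.87 CPM in WT (SD, n = 3 each) and an adjusted p of 0.242. Rpa1, the large subunit of the protein that binds single-stranded DNA, had the highest level, with 121 ± 12.7 CPM in XBP1-KO and 155 ± 23.6 CPM in WT (SD, n = 3 each) and an adjusted p of 0.304. Of 68 other mitotic genes tested 41 lay lower (60.3%), with a median of -0.11, and none passed. In this list 11 had an unadjusted p under 0.05 (16.2%), all lower, beside the same 12.8% of all genes in either direction. Cenpi, a protein of the inner kinetochore, had the smallest p, with 10.8 ± 2.73 CPM in XBP1-KO and 18.6 ± 4.16 CPM in WT (SD, n = 3 each) and an adjusted p of 0.157. H2afz, the histone variant H2A.Z, had the highest level, with 1935 ± 187 CPM in XBP1-KO and 1776 ± 180 CPM in WT (SD, n = 3 each) and an adjusted p of 0.744. WT b was again the highest library, for 42.6% of the other S-phase and 54.4% of the other mitotic genes.

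The genes that decide on division were counted apart, as 39 tested genes of G1 control, E2F, the DREAM complex and CDK inhibitors. Of these 22 lay lower, 17 higher and none passed, with 6 at an unadjusted p under 0.05 (15.4%, near the 12.8% of all genes), 2 higher and 4 lower. E2f1, an activator of S-phase genes, had 9.07, 10.1 and 11.2 CPM in XBP1-KO libraries a, b and c, against 16.9, 15.4 and 18.6 CPM in WT libraries a, b and c. The groups did not overlap, and the log2 fold change was -0.74 (SE 0.187, 95% interval -1.15 to -0.34) and the adjusted p 0.0998 in edgeR's test. Btg1, an antiproliferative gene, had the highest level, with 902 ± 217 CPM in XBP1-KO and 852 ± 158 CPM in WT (SD, n = 3 each) and an adjusted p of 0.885.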

How the data were processed

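The authors deposited raw counts per gene symbol (23225 symbols, 6 libraries), all whole numbers, and a table of CPM, whose values differed from counts over library totals by at most 5.8e-11. RSEM, edgeR and the build mm9 are named in the submitters' processing notes, with no version or role, and the aligner, annotation and strand setting were not given in the sources used here. Columns are labelled by genotype alone.

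For the comparison of genotypes the deposited counts went into edgeR 4.0.16 under R 4.3.3 (filterByExpr defaults, which left 15958 genes, TMM factors, robust quasi-likelihood F test of XBP1-KO over WT, two-sided, Benjamini-Hochberg adjustment over all genes tested, threshold 0.05). Standard errors are the fold change over the square root of F. Promoters, lengths and exon overlaps came from RefSeq and GENCODE M21 tables of GRCm38, matched by symbol, and of the 41 members 9 had an exon overlap with another gene. The ratios to a gene's mean by library were chosen after seeing the data. No set test was run. The members and lists were chosen with earlier results of these data known. All members are named or counted. Full values were given for the member of highest CPM and of smallest p in each role, Mki67, Top2a and Xbp1, and for the gene of smallest p and of highest CPM in each pathway list. Full values of Mcm6 and Rrm2 and those of Xcr1, Clec9a, Flt3 and Batf3 were added after they were seen. The test was checked on simulated counts whose planted changes were larger than that of any member, with no library that stood apart. The check therefore does not bear on smaller changes. Alternatives were DESeq2 1.42.0, limma 3.58.1 with voom, other scalings and filters, no robust estimation, the deposited CPM and each library left out.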

Additional observations from a re-analysis of the deposited data

How the results depend on the processing

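No call was made among the cell division genes in 14 of the 17 alternatives. DESeq2 and the absence of a filter each called 1 S-phase gene (Mcm3) and 2 mitotic genes (Bub1b and Top2a), and leaving out XBP1-KO b called 1 mitotic gene (Bub1b), so that with 1 library left out the mitotic count ranged from 0 to 1 and the S-phase count was 0. With 1 library left out the S-phase median log2 fold change ranged from -0.35 to -0.051 and the mitotic median from -0.17 to 0.034. Without WT b the mitotic median lay above 0, as it did with library size alone, upper quartile scaling and the deposited CPM. Over all genes the number called was 463 with DESeq2, 252 without a filter on low counts, 47 with limma-voom, 45 without robust estimation, 25 with library size alone and with the deposited CPM at log2(value + 1), and 13 at log2(value + 0.1). With 1 library left out it ranged from 5 (without WT c) to 154 (without XBP1-KO b), with 13 without XBP1-KO a, 16 without XBP1-KO c, 38 without WT a and 40 without WT b. The split of 25 higher and 46 lower became 23 and 27 with upper quartile scaling and 13 and 12 with library size alone. The cause of these differences was not tested. No paired analysis was possible because the columns carry no replicate numbers. The spread between 3 libraries a genotype limits the members' precision, with standard errors between 0.117 and 0.299 on the log2 scale. Counting error was not separated from that spread.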
